A study of Mus musculus with 8 samples.

Results

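The genes described here are 8 genes of basal forebrain cholinergic neurons, namely Gbx1, Gbx2, Chat, Slc18a3, Slc5a7, Slc10a4, Ache and Ngfr, out of 17174 genes with a symbol on a whole mouse genome array. They were chosen as named markers and neurotransmission genes of this cell class, with their signals on these same arrays, in wild-type and in mutant tissue, already known. The difference between the groups is therefore given for them as a description, without a p-value. The 8 genes are covered by 11 of the 41174 probes, and 10 of these probes, at least 1 for each gene, passed the filter on dim probes.

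RNA came from the medial ganglionic eminence (MGE), a progenitor zone of the ventral forebrain, dissected from C57BL/6 mouse embryos at embryonic day 13.5. All samples carried a floxed allele of Nkx2-1, a homeobox gene required for MGE identity. The 4 samples called WT were labelled Nkx2-1flox/+;Olig2tva-cre-, that is, without Cre. The 4 mutant samples (Nkx2-1cKO) were labelled Nkx2-1flox/+;Olig2tva-cre+, and their Cre is expressed from Olig2 regulatory sequence, so recombination is limited to cells that have used it. This label names a heterozygous floxed allele, whereas the titles call the samples knockouts and the methods of the study list the allele as Nkx2-1f/f. Each sample was amplified, labelled with Cy3 and hybridised alone to 1 array, and the labels do not say whether a sample is 1 embryo, a litter or a pool. The p-values given for other genes therefore measure the spread between these samples, which may be technical.

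Cholinergic neurons of the basal forebrain arise in the ventral telencephalon from cells that have expressed Nkx2-1, and they later supply the cortex, hippocampus and amygdala with acetylcholine. The transmitter is made by choline acetyltransferase (Chat), loaded into vesicles by the vesicular acetylcholine transporter (Slc18a3), split in the synaptic cleft by acetylcholinesterase (Ache) and recovered as choline by the high-affinity choline transporter (Slc5a7). Slc10a4 is a vesicle protein of cholinergic and monoaminergic neurons, and Ngfr is the low-affinity neurotrophin receptor p75, by which these neurons are often recognised in the adult. Gbx1 and Gbx2 encode closely related homeodomain transcription factors, expressed in the ventral telencephalon among other regions. The synthesis and transport genes are markers of mature neurons, whereas the tissue sampled here is embryonic and holds mostly progenitors and newly born neurons, many of them GABAergic.

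RefSeq promoters were at hand for 7 of the 8 genes, all but Gbx1, and 3 of them are shown because they belong to the genes around which the results below turn: a transcription factor, the vesicle protein and the transporter whose gene lies within another of the 8. Each is the 250 bases before the annotated start on GRCm38.p6, 5′ to 3′ on the strand of the gene. Capitals mark CAAGTG, a core recognised by NKX2-1, or CAGCTG, an E-box.
Gbx2, chr1:89931177-89931426, minus strand: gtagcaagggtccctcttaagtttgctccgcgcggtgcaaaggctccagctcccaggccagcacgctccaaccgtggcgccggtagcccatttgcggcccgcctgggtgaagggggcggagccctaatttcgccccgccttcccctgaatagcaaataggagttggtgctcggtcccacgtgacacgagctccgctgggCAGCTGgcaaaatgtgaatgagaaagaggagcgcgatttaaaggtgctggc
Slc10a4, chr5:73006654-73006903, plus strand: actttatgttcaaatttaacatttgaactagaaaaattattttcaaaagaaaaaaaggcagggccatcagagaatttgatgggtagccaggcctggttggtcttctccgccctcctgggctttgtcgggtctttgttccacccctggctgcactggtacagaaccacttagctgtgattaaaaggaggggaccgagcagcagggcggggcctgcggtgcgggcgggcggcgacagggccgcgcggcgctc
Slc18a3, chr14:32464851-32465100, minus strand: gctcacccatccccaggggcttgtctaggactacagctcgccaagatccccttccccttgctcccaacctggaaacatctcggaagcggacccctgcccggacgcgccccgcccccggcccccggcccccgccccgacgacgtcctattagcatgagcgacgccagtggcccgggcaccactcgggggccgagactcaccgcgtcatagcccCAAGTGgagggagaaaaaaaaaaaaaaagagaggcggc
The core CAAGTG was searched on both strands and was present in 2 of the 7 windows, Slc18a3 and Ngfr, against 11.6% of all 32851 promoters. The E-box CAGCTG, which was added after the sequences had been seen, was present in 3 of the 7, Gbx2, Chat and Ngfr, against 13.0% of all. The homeodomain core TAATTA was in none of the 7 and in 4.84% of all promoters, and the octamer ATGCAAAT was in none of the 7 and in 1.60% of all. These matches are descriptions of letters in a short window and were not tested as binding sites. Slc18a3 lies within the span of Chat on the same strand, with 1059 bases between the starts of both genes, and each gene has a probe of its own on the array.

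The arrays lay on 2 slides, each with 2 WT and 2 Nkx2-1cKO samples, which separates slide from genotype. Between 71.1% and 79.5% of probes were called well above background by the scanner software on each array, and no spot was saturated. Values are log2 of the background-subtracted intensity minus the log2 of the 75th percentile of the array, so that 0 is the level of that percentile and -1 is a signal lower by 1 log2 unit. Signals of different probes are not comparable with each other. WT replicate 1 stood apart. Among the dimmest 20% of probes its values lay a median of 1.18 log2 above the median of the other arrays. The same measure was -0.41 to 0.22 on the other 7 arrays. The spots of negative control probes read 70.5 intensity units above their local background on that array, and 28.0 to 38.0 on the others. Dim probes are thus raised in 1 of the 4 WT samples, and for most of the dim genes named below the values without it are given as well. Nkx2-1 itself read 1.82 to 1.95 in WT and -4.67 to -4.26 in the mutant, and Lhx6, a gene of postmitotic MGE neurons, 3.16 to 3.31 against -1.32 to -0.69. The mutant arrays held 1.24% of the WT Nkx2-1 signal, in the direction of the knockout named in their titles, whereas the genotype label names 1 floxed allele beside a wild-type one. The allele is therefore not settled here.

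Across the 8 genes, 7 had a mean signal that was lower in mutant than in WT tissue, and 5 were lower by at least 1 log2 unit. The median difference was -1.31, beside -0.00175 over all 14443 genes tested. In 5 genes, Gbx1, Gbx2, Slc10a4, Slc5a7 and Ngfr, every mutant array lay below every WT array, which was the case for 4.02% of all genes tested. For Slc5a7 and Ngfr this did not hold with quantile normalization, nor for Ngfr with centring on the median, while it held for Slc18a3 in both. Gbx1, Gbx2 and Slc10a4 passed the threshold for lower genes (an adjusted p of 0.05 in limma), as did 0.852% of all genes, and none passed it for higher genes, as did 0.492%. Nothing is read from these shares, since the genes were selected on the same contrast. The tissue is a mixture, and in bulk RNA fewer cells of a type cannot be told apart from less RNA per cell.

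**Figure D1:**
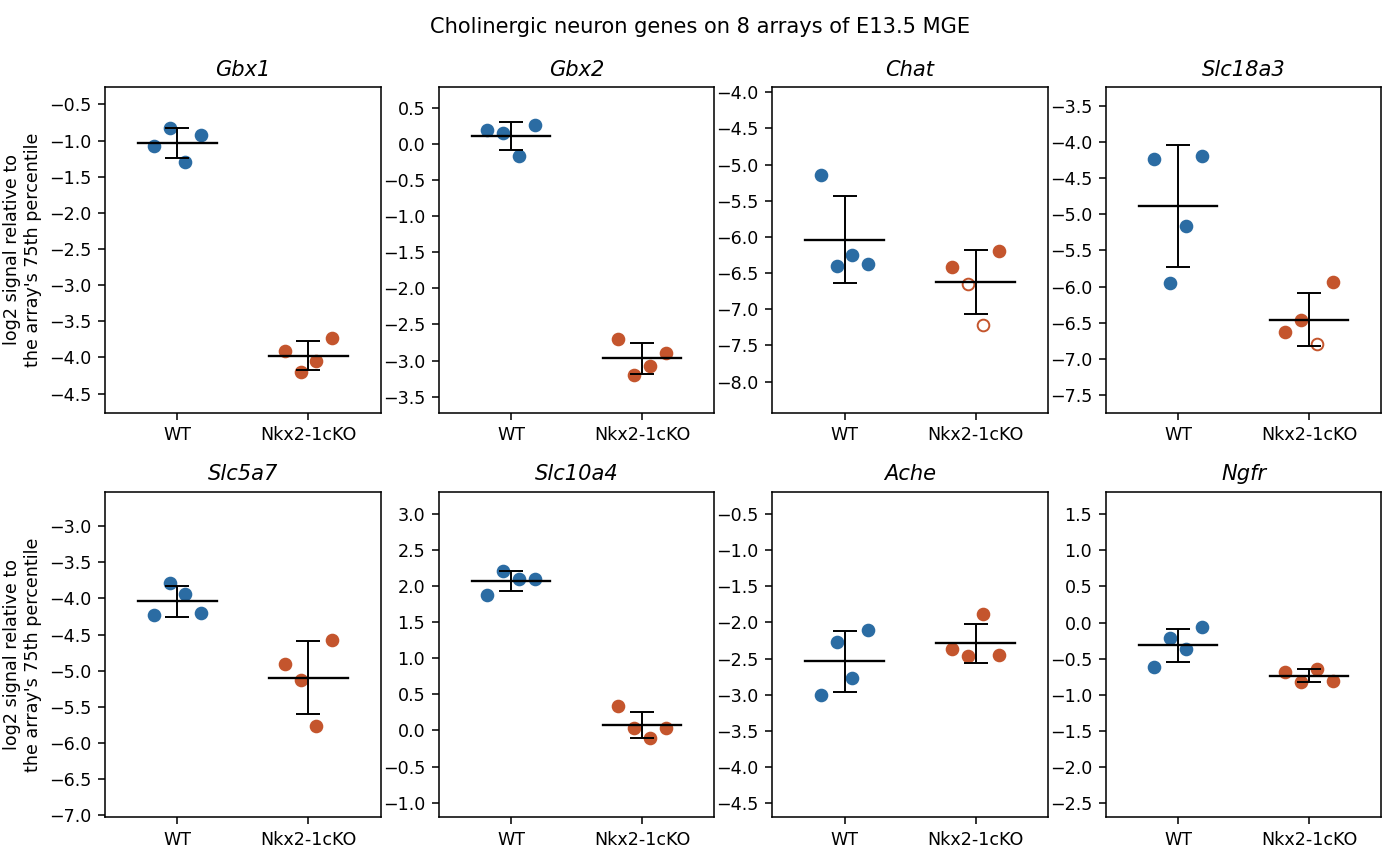
Log2 signal of the 8 genes, 1 probe a gene, with the 75th percentile of the array set to 0 (y axis), for 4 WT (blue) and 4 Nkx2-1cKO (orange) arrays in the order of their replicate numbers. Lines are means ± SD, open circles are spots not well above background, and every panel spans the same log2 range around its own centre. The groups lie far apart for Gbx1, Gbx2 and Slc10a4, and overlap for Chat, Slc18a3 and Ache.

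The largest differences were in the transcription factors. Gbx2 read 0.19, 0.15, -0.17 and 0.25 in WT replicates 1 to 4, and -2.70, -3.19, -3.07 and -2.90 in the corresponding mutant arrays. The gap between the lowest WT and the highest mutant array was 2.53 log2 units, and the signal was well above background on all 8 arrays. The difference was -3.07 (standard error 0.14), so that the mutant held 11.9% of the WT signal. Gbx1 read -1.08, -0.82, -1.30 and -0.93 in WT and -3.91, -4.20, -4.05 and -3.74 in the mutant. It too was separated without overlap, by 2.44 log2 units, and was detected on every array. Its difference was -2.94 (standard error 0.14), which left 13.0% of the WT signal. Ranked from the largest fall, Gbx2 was in place 8 and Gbx1 in place 10 of the 14443 genes. Both slides gave these differences: -3.06 and -3.09 for Gbx2, and -2.78 and -3.10 for Gbx1. Leaving out WT replicate 1 gave -3.05 for Gbx2 and -2.96 for Gbx1. Each Gbx gene has 1 probe on the array, so there is no further probe to set beside these values.

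Slc10a4 was the only vesicle or transporter gene of the 8 whose groups were widely separated. Its brighter probe read 1.87, 2.21, 2.09 and 2.09 in WT and 0.33, 0.04, -0.11 and 0.04 in the mutant. The lowest WT array was 1.53 log2 units above the highest mutant array. The difference was -1.99 (standard error 0.11), or 25.2% of the WT signal, in place 32 of all genes. Its other probe read -1.11, -1.46, -1.14 and -1.43 in WT and -3.27, -3.07, -3.63 and -2.92 in the mutant. That probe gave a difference of -1.94 (standard error 0.17) and 26.1% of the WT signal, so both probes gave nearly the same value although the second had a much dimmer signal. WT replicate 1, which raised dim probes, was the lowest of the WT arrays on the brighter probe, and the difference without it was -2.05. In the mutant all 4 arrays remained well above background on both probes.

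The genes for synthesis, vesicle loading and uptake of acetylcholine were dim in both groups, and their differences were less certain. Slc18a3 read -4.24, -5.96, -5.17 and -4.19 in WT and -6.63, -6.46, -6.80 and -5.94 in the mutant. WT replicate 2 was 0.01 log2 units below the highest mutant array, so the groups just overlapped, and WT alone spread over a range of more than 1 log2 unit. Well above background were 4 of the WT and 3 of the mutant spots. The difference was -1.57 (standard error 0.42), or 33.7% of the WT signal, and without WT replicate 1 it was -1.35, or 39.2%. Slc5a7 read -4.23, -3.79, -3.94 and -4.20 in WT and -4.91, -5.13, -5.77 and -4.57 in the mutant. Its groups did not overlap, with 0.34 log2 units between them, and all 8 spots were well above background. The difference was -1.06 (standard error 0.26), or 48.0% of the WT signal. It was -0.77 on slide 1 and -1.35 on slide 2. WT replicate 1 was the lowest WT array here, and without it the difference was -1.12.

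Chat, the gene that defines the cholinergic phenotype, was close to background. Its brighter probe read -5.15, -6.40, -6.25 and -6.37 in WT and -6.41, -6.66, -7.22 and -6.19 in the mutant. Apart from WT replicate 1, the WT values lay within the range of the mutant values. The probe was well above background on 4 WT and 2 mutant arrays. The difference was -0.58 (standard error 0.39), and without WT replicate 1 it was -0.28, which is 82.3% of the WT signal in place of 66.9%. With quantile normalization it was -0.08. The second Chat probe read -5.67, -7.09, -7.80 and -6.64 in WT and -7.20, -8.53, -7.90 and -7.74 in the mutant. It was well above background on 1 WT array and on no mutant array, so it did not enter the fit and no fold is given for it. Its measured means were -6.80 and -7.84, a difference of -1.04, or -0.67 without WT replicate 1. A difference in Chat was therefore not detectable beyond the spread of these arrays.

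Ache and Ngfr, whose products are also found outside cholinergic neurons, differed by less than 1 log2 unit on every probe. Ache read -3.01, -2.27, -2.77 and -2.10 in WT and -2.36, -2.47, -1.88 and -2.44 in the mutant. The groups overlapped, and the mutant mean was the higher by 0.25 (standard error 0.22), or by 0.09 without WT replicate 1. It was the only gene of the 8 with a higher mean in the mutant. The brighter Ngfr probe read -0.61, -0.22, -0.37 and -0.06 in WT and -0.68, -0.82, -0.63 and -0.80 in the mutant. The groups were separated by only 0.02 log2 units, with WT replicate 1 the nearest to the mutant arrays. The difference was -0.42 (standard error 0.12), or 74.8% of the WT signal, and -0.52 without WT replicate 1. The second Ngfr probe was dim and read -4.01, -5.06, -5.27 and -5.08 in WT and -5.33, -5.35, -5.80 and -5.32 in the mutant. Its difference of -0.60 (standard error 0.30) was -0.32 without WT replicate 1, which was the highest of the WT arrays on this probe.

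**Figure D2:**
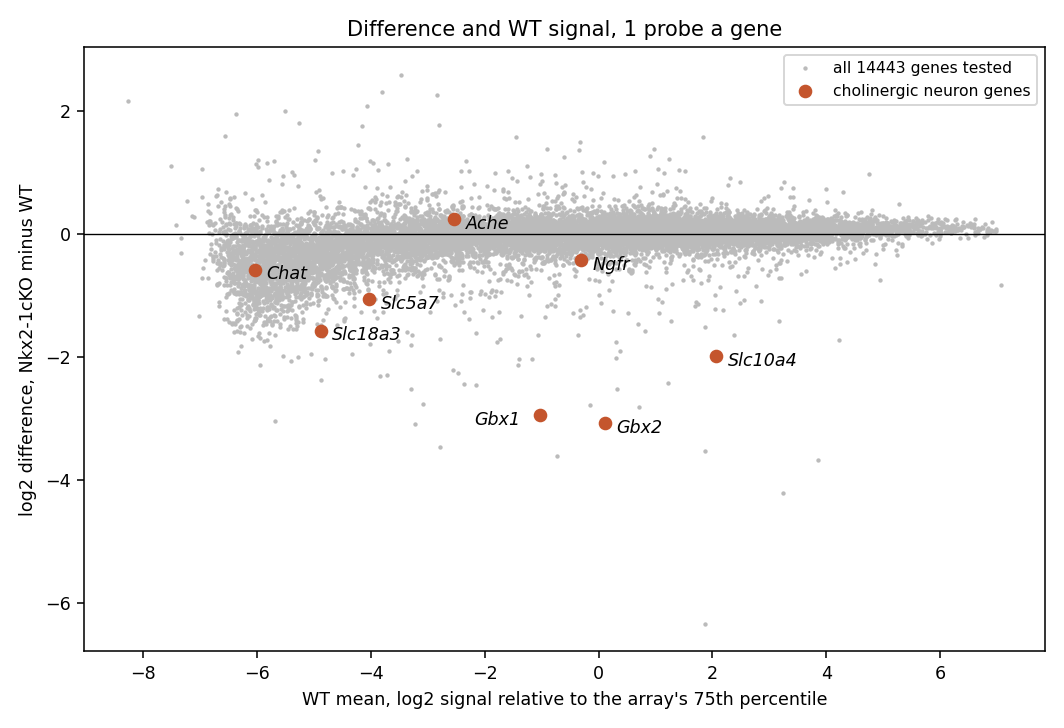
Log2 difference, Nkx2-1cKO minus WT (y axis), against the WT mean signal relative to the 75th percentile of the array (x axis), for 14443 genes (grey, 1 probe a gene) and the 8 cholinergic neuron genes (orange). Chat and Slc18a3 lie among dim genes, whose differences spread widely below 0, while Gbx1, Gbx2 and Slc10a4 lie below nearly all genes of like signal.

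The position of each gene in the range of signals bears on these values. Slc18a3, Slc5a7 and Chat lay in the dimmest 20% of the genes tested, where the median difference over all 2889 genes was -0.38, and -0.11 without WT replicate 1. Gbx1, Gbx2 and Ache lay in the next 20%, in which the median was -0.05. Ngfr was in the middle 20% (median 0.02) and Slc10a4 in the 20% above it (median 0.05). These classes did not follow the WT mean alone. Gbx2 lay in a dimmer class than Ngfr although its WT mean was the higher, 0.11 against -0.32. The mutant signal thus appears to have entered the ranking, so that a gene's own fall can move it to a dimmer class. The plot of differences against signal uses the WT mean instead. The difference of -0.58 in Chat was near the median of the dimmest 20%. The differences of -1.06 in Slc5a7 and -1.57 in Slc18a3 were larger in size than that median. In the ranking from the largest fall, Slc18a3 was in place 69, Slc5a7 in place 293, Chat in place 1138, Ngfr in place 1705 and Ache in place 13475.

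The values of Slc5a7, Slc18a3 and Chat depended on the background correction. With normexp, which models the signal and the local background of each spot and here adds an offset of 50, Slc5a7, Slc18a3 and Chat differed by 0.03, 0.10 and 0.63, that is, without a fall. These values rested on 1 array. On Nkx2-1cKO replicate 1, 6 spots had a local background above their own signal, and with them the background mean was estimated at -980 intensity units, against 17.2 to 36.4 on the other arrays. Slc5a7, Slc18a3 and Chat then read -1.41, -1.45 and -1.45 on that array, far above the other mutant arrays. With the 6 spots left out, an alternative chosen after seeing the data, the background mean of the array was 22.7. The differences were then -0.60 in Slc5a7, -0.69 in Slc18a3 and -0.16 in Chat, -2.49 in Gbx1, -2.82 in Gbx2 and -1.98 in Slc10a4. An added offset shrinks the differences of dim probes by construction. In this setting every mutant array lay below every WT array in 6 of the 8 genes, all but Chat and Ache. The share over all genes was not counted for this setting, so nothing is read from that number.

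**Figure D3:**
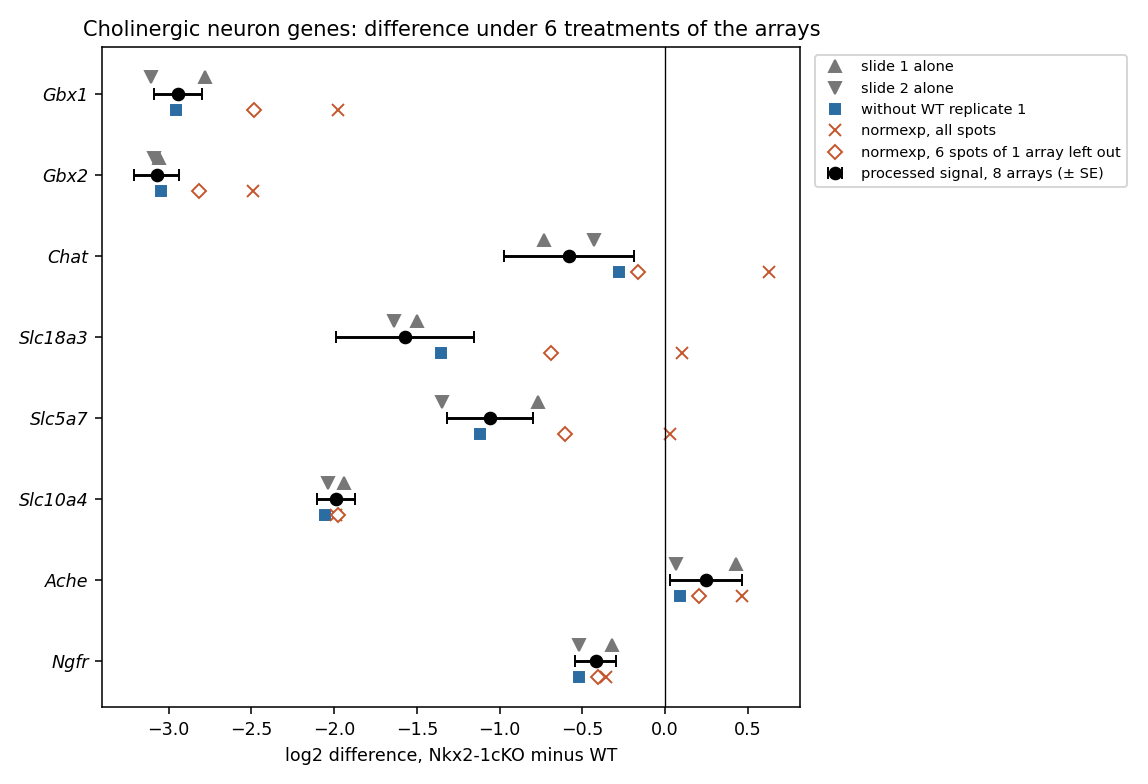
Log2 difference, Nkx2-1cKO minus WT (x axis), of the 8 genes: background-subtracted signal of all 8 arrays with its standard error (black), each slide alone (grey triangles), without WT replicate 1 (blue squares), normexp on all spots (crosses) and normexp with 6 spots of 1 array left out (open diamonds). Gbx1, Gbx2 and Slc10a4 stay below -1.9 throughout, and the crosses of Slc5a7, Slc18a3 and Chat, at 0.03, 0.10 and 0.63, lie apart from their other symbols.

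Among all genes with a symbol, likeness of pattern was measured as the root mean square difference of log2 values, centred on their mean, over the 8 arrays. The gene nearest to Gbx1 was Gbx2, and the reverse, with a difference of 0.14. Next to Gbx1 came Adamts5 at 0.24, a protease of the extracellular matrix, and Tgfb3 at 0.33, a ligand of the TGF-beta family. Next to Gbx2 came Adamts5 at 0.25 and Lhx8 at 0.32. The genes nearest to Slc10a4 were Nxph1 (0.17), which encodes a ligand of neurexins, Kcnc2 (0.18), a potassium channel subunit, and Elfn1 (0.18), a synaptic adhesion protein. Slc5a7 was nearest to L3hypdh (0.26), Sstr1 (0.30) and Zdhhc2 (0.32), and Slc18a3 to Matn4 (0.26), Tbx15 (0.29) and Htr7 (0.39). Since most of the variance of such genes lies between the groups, this likeness is mainly one of the size of the difference.

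Other genes of acetylcholine signalling and of the neurons that use it were taken from 6 lists of 58 genes in all, of which 56 were on the array and 46 could be tested. Of these, 1 was called lower and 2 higher, together 6.52%, beside 0.852% lower and 0.492% higher over all genes. Nothing is read from this share, since the lists were chosen with earlier results of these data known. The median difference of the 46 was -0.24, and -0.10 without WT replicate 1. Each of the calls rests on the fit over all 31280 probes with limma.

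Among 6 transcription factors of forebrain cholinergic neurons, Lhx8 fell and Isl1 rose. Lhx8, a LIM homeobox gene needed for the formation of these neurons, read 3.99, 3.93, 3.63 and 3.88 in WT and 0.68, -0.10, 0.09 and 0.10 in the mutant. The difference was -3.67 (standard error 0.16, adjusted p = 5.44e-06 in limma), larger in size than that of any of the 8 genes above, and -3.80 on a second probe. Isl1, a LIM homeobox gene of cholinergic neurons and of striatal projection neurons, read 0.83, 0.98, 1.03 and 0.76 in WT and 2.20, 2.17, 2.01 and 2.28 in the mutant. It rose by 1.26 (standard error 0.09, adjusted p = 0.000163 in limma), with every mutant array above every WT array. The other 4, Gsx2, Otx2, Dlx1 and Dlx2, did not pass the test, with differences from -0.39 in Dlx1 to 0.42 in Gsx2. Dlx1 was lower on every mutant array (adjusted p = 0.0832 in limma). It passed with the slide as a block (adjusted p = 0.0231), with array weights (0.0391), with quantile normalization (0.0181) and without Nkx2-1cKO replicate 1 (0.0321), and over all alternatives its adjusted p in limma ranged from 0.0181 to 0.653.

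None of 6 neurotrophin genes and receptors tested was called. The largest difference was in Ntf3, which encodes neurotrophin-3 and read -3.39, -2.11, -4.11 and -4.55 in WT and -5.29, -4.32, -4.23 and -3.93 in the mutant. The groups overlapped, and the difference was -0.90 (standard error 0.50, adjusted p = 0.636 in limma). Of Sort1, which encodes sortilin, a receptor that can associate with Ngfr, the difference was -0.05 on the brightest probe (adjusted p = 0.934 in limma). Its dimmer probes gave -0.01 to 0.22. On the probe at 0.22 every mutant array lay above every WT array (adjusted p = 0.535 in limma). Ntrk3 was higher on every mutant array on both of its probes, by 0.43 and 0.22 (adjusted p = 0.365 and 0.535 in limma). The brighter Ntrk2 probe overlapped between the groups, with a difference of -0.24 (adjusted p = 0.641 in limma). Its second probe was lower on every mutant array, at -0.47 (adjusted p = 0.186 in limma).

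Among the relatives of the transporters, 4 could be tested and 1 was called. Slc18a2, the vesicular monoamine transporter, belongs to the same family as Slc18a3. Its brighter probe read 1.16, 1.62, 1.40 and 1.47 in WT and 2.76, 2.39, 2.25 and 2.40 in the mutant. It rose by 1.04 (standard error 0.13, adjusted p = 0.00467 in limma), and by 1.00 on a second probe. The differences of the other 3, Slc10a3, Slc10a7 and Slc18b1, were between -0.33 and 0.28 and did not pass.

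The receptors for acetylcholine gave no calls. Of 12 nicotinic subunits tested out of 16, 11 had a lower mean in the mutant, with a median of -0.37, but without WT replicate 1 the number was 8 and the median -0.16. Chrna2, the subunit with the largest difference, read -4.93, -4.77, -5.02 and -4.79 in WT and -5.88, -7.30, -8.72 and -7.07 in the mutant. The groups did not overlap, and the difference was -2.36 (standard error 0.52, adjusted p = 0.085 in limma). Only 1 of the 4 mutant spots was well above background. Without Nkx2-1cKO replicate 1, the highest of the mutant arrays, the difference was -2.82 and passed the threshold (adjusted p = 0.0309 in limma), as it also did with array weights, at -2.37 (adjusted p = 0.0417 in limma). With normexp after the 6 spots were left out it passed at a smaller difference of -0.78 (adjusted p = 0.0293 in limma), and with normexp on all spots it was -0.04. The size of this difference thus depended on the background correction. Over all alternatives the adjusted p of Chrna2 ranged from 0.0293 to 0.986. Chrna4, a subunit of the main nicotinic receptor of the brain, was the only one with a higher mean, by 0.38 (adjusted p = 0.259 in limma). On a second, dimmer Chrna4 probe the groups overlapped and the difference was -0.05 (adjusted p = 0.944 in limma). Of the muscarinic receptors 4 of 5 were tested, and the largest difference was that of Chrm5, -0.63 (standard error 0.43, adjusted p = 0.664 in limma). The median of the 4 was -0.48, and -0.11 without WT replicate 1.

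No gene for the supply of choline or for the anchoring and folding of cholinergic proteins passed the test, among 14 tested. The largest difference was in Bche, which encodes butyrylcholinesterase, at -0.82 (standard error 0.49, adjusted p = 0.65 in limma), and it was -0.42 without WT replicate 1, which is smaller in size than Slc44a1. The genes of choline kinase, Chka and Chkb, differed by 0.05 and 0.23, and Acly, which makes cytosolic acetyl-CoA, by -0.03. Slc44a1, a choline transporter of low affinity found in many cells, was lower on every mutant array, with a difference of -0.47 (adjusted p = 0.103 in limma), also without WT replicate 1. Ache and its membrane anchor Prima1 differed by 0.25 and -0.58, the latter with an adjusted p of 0.588 in limma and a value of -0.34 without WT replicate 1.

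**Figure D4:**
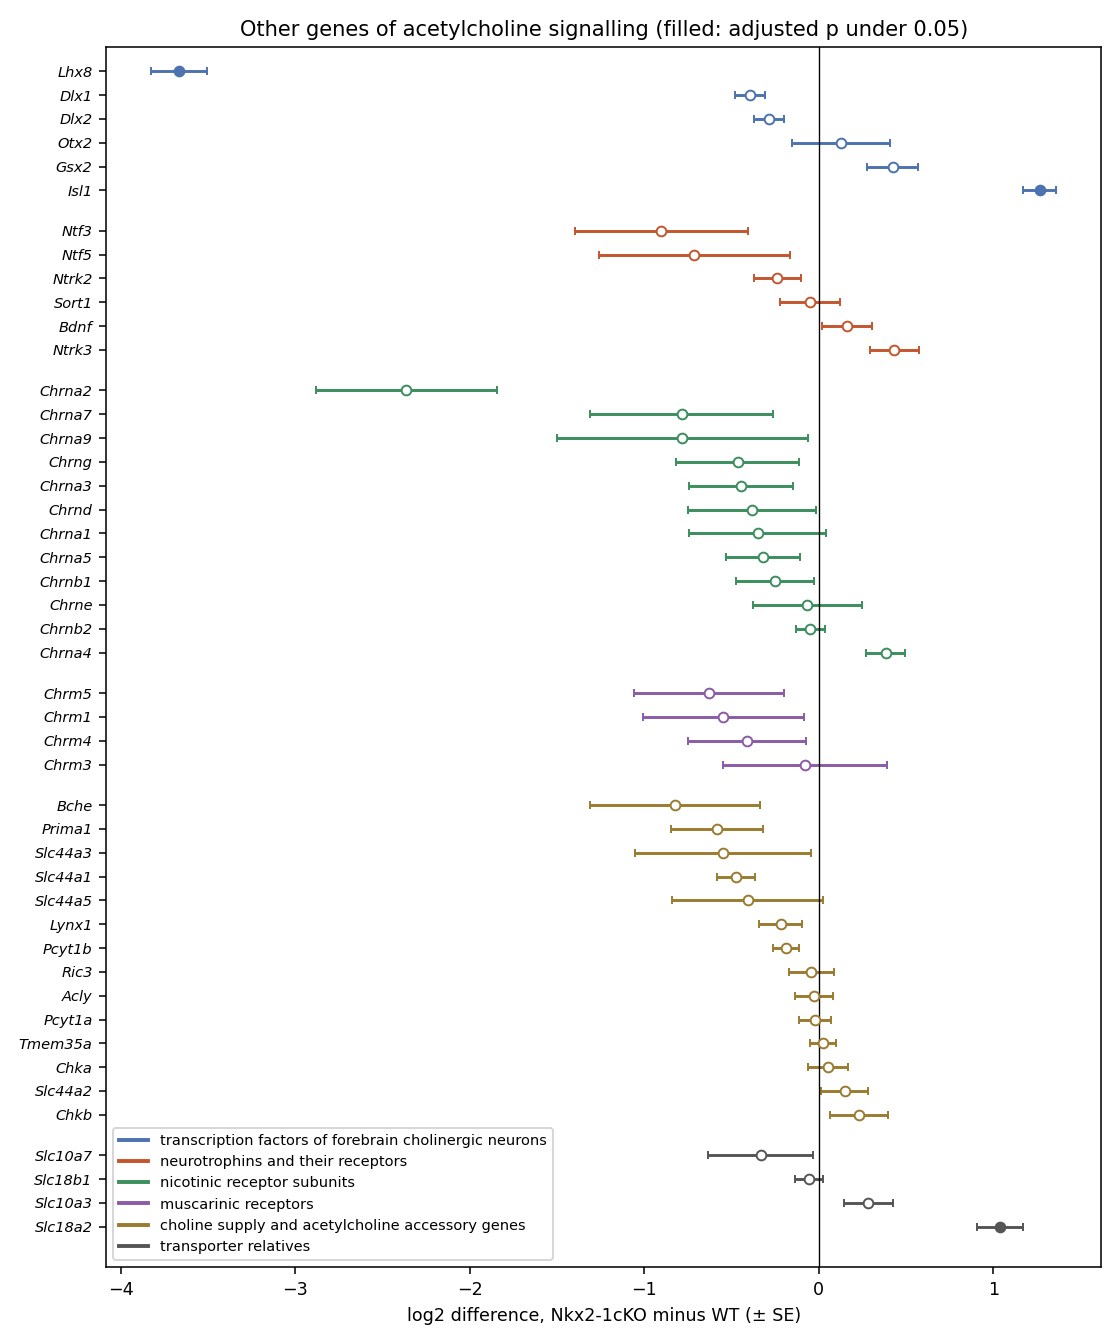
Log2 difference, Nkx2-1cKO minus WT, with its standard error (x axis), of 46 other genes of acetylcholine signalling (rows), coloured by list. Filled symbols passed an adjusted p of 0.05 in limma: Lhx8 was lower, Isl1 and Slc18a2 were higher, and no receptor subunit, neurotrophin or choline gene passed.

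Markers of other cells that the dissection could hold are given beside these values, as summed signals of each list relative to the 75th percentile of the array. The markers of other cholinergic neurons, the motor neurons, were near background. Of 7 such genes 4 could be tested, none was called, and Mnx1, Isl2 and Hoxc5 were too dim to be tested. Their summed signal was 0.0533 to 0.181 in WT and 0.0367 to 0.0614 in the mutant. The 0.181 was that of WT replicate 1, and the other WT arrays lay between 0.0533 and 0.0636. Markers of septum and midline had a lower mean in the mutant in 6 of 6 genes tested, of which none was called. Their sum was 8.67 to 14.5 in WT, where the highest was WT replicate 1, and 6.50 to 8.71 on the 3 mutant arrays with complete values, the Zic1 spot of Nkx2-1cKO replicate 1 being an outlier that was dropped. In the preoptic and hypothalamic list Dbx1 rose by 2.26 (adjusted p = 0.00777 in limma), and the sum was 0.175 to 0.466 in WT and 0.528 to 1.22 in the mutant. Of the 6 genes of that list tested, 3 had a higher and 3 a lower mean in the mutant. Without WT replicate 1 only 1 had a lower mean. Nkx2-2 was lower on every mutant array, with a difference of -0.91 (adjusted p = 0.447 in limma). In the thalamic list Tcf7l2 rose by 0.99 (adjusted p = 0.00159 in limma), and the sum was 3.21 to 4.29 in WT, or to 3.50 without WT replicate 1, and 3.99 to 4.81 in the mutant. Of the 7 thalamic genes tested, 4 had a lower and 3 a higher mean in the mutant, with a median of -0.08. Without WT replicate 1, 3 had a lower mean and the median was 0.05. Rora was lower on every mutant array on its brighter probe, with a difference of -0.54 (adjusted p = 0.332 in limma). The part of these markers in the differences of the cholinergic genes was not tested. For neural crest, mesenchyme, erythroid cells and endothelium no gene was called, and the ranges of the sums overlapped between the groups. The GABA transporter gene Slc32a1, with a mean of 5.05 in both groups, differed by 0.00 (standard error 0.14, adjusted p = 1.00 in limma), and the list of genes for other transmitters, 8 tested, had no call.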

How the data were processed

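Transcript levels were measured in 4 WT and 4 Nkx2-1cKO samples of MGE, on 1-colour Agilent arrays with 1 sample each. The authors deposited tables written by the scanner software Feature Extraction, in which every spot has an intensity, corrected for background and for trends over the array, beside its median intensity and local background. The file headers name version 10.7.3.1 and the mouse build mm9, and the submitters' processing notes name version 10.1. The deposited intensities had not been scaled between arrays.

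Control spots and outlier spots (76 to 147 an array) were left out, and the log2 intensity of each spot was reduced by that of the array's 75th percentile, which was 2413 to 2573 in WT and 2026 to 2522 in the mutant. Spots of a probe were averaged. Accessions were named from a RefSeq gene table of GRCm38.p6, which gave 24836 probes a symbol. Its coordinates were used only to place Slc18a3 within the span of Chat. A probe was tested if at least 4 of the 8 arrays had it well above background, which held for 31280 probes (50 missing values). They were fitted in limma 3.58.1 (R 4.3.3) by lmFit and by eBayes with a mean-variance trend, and p-values were adjusted over all tested probes by the method of Benjamini and Hochberg. The procedure was tested on simulated data. A gene is represented by its brightest tested probe. The number of arrays limits the precision.

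Named were all 8 genes with all their probes, from every other list the genes called or, where none was called, the one with the largest difference, and the 3 nearest genes by pattern for members differing by at least 1 log2 unit. Other genes of these lists that have a value in the text were added after their values were seen. The members and lists were chosen with earlier results of these data known, and some genes of the lists are not reported here.

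The alternatives tried were normexp on the median signal, with and without 6 spots of 1 array, quantile scaling, median centring, no filter, a filter on the mean signal, the mean over a gene's probes, a fit without the variance trend, array weights, slide or replicate number as a block, and each array left out. Deviations from the group mean correlated at -0.481 to -0.194 between arrays of equal replicate number, and the numbers were therefore not taken as pairs.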

Additional observations from a re-analysis of the deposited data

Results flagged for a closer look

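Of 114 groups of 4 arrays, each the values of 1 probe of the 8 cholinergic genes or of 1 of the 46 other genes in 1 genotype, 8 had a single array lying apart from the other 3, by a gap beyond Dixon's 95% critical value. Chance alone flags about 1 in 20 groups, or 5.70 of 114. WT replicate 1, the array with raised dim probes, was the array apart in 4 of them: the brighter Chat probe at -5.15 (others -6.40 to -6.25), the dimmer Ngfr probe at -4.01 (others -5.27 to -5.06), Chrng at -4.91 (others -6.19 to -6.02) and Chrm4 at -3.38 (others -4.92 to -4.70). In WT, replicate 4 lay apart in Chrnb2 at 1.24 (others 1.00 to 1.04) and in Pcyt1b at 0.41 (others 0.36 to 0.37). In the mutant, replicate 3 lay apart in the dimmer Ngfr probe at -5.80 (others -5.35 to -5.32) and replicate 4 in Chrna7 at -5.09 (others -6.08 to -5.98).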

How the results depend on the processing

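Gbx1, Gbx2 and Slc10a4 were called lower in all 19 alternatives, and Ngfr in 1, with array weights, so that 3 or 4 of the 8 genes were called. The calls among the 46 other genes numbered 3, and 2 to 5 in the alternatives, with 5 under array weights, and Lhx8 and Isl1 were called in every alternative. With normexp on all spots, Gbx1 differed by -1.97, Gbx2 by -2.49, Chat by 0.63, Slc5a7 by 0.032 and Slc18a3 by 0.10, 3 of the 8 genes had groups without overlap, and 64 probes were called higher and 91 lower, in place of 132 and 192. That setting moved the median of all probes from -0.04 to 0.19. With the 6 spots left out the values were -2.49 in Gbx1, -2.82 in Gbx2, -0.60 in Slc5a7 and -0.69 in Slc18a3, and the calls 103 and 158. Array weights gave 291 lower probes, centring on the median 115 lower, and the slide as a block 209 higher. With the replicate block, a fit in which the numbers do not pair the samples, 8 probes were called higher and 65 lower, and Slc18a2 differed by 1.04 with an adjusted p of 0.0989 in limma. Leaving out each array in turn gave 64 (without Nkx2-1cKO replicate 1) to 120 higher probes (without WT replicate 1), with 72 to 82 when any other array but Nkx2-1cKO replicate 2 was left out, and 131 to 174 lower probes, 5 to 7 of the 8 genes without overlap, and 3 to 5 calls among the 46 other genes, 5 without Nkx2-1cKO replicate 1. Over these fits Gbx1 ranged from -3.03 to -2.87, Gbx2 from -3.16 to -3.00, Slc10a4 from -2.08 to -1.93, Slc18a3 from -1.93 to -1.34, Slc5a7 from -1.23 to -0.83, Chat from -0.72 to -0.28, Ngfr from -0.52 to -0.33 and Ache from 0.09 to 0.39. With quantile normalization 4 of the 8 genes had groups without overlap, Gbx1, Gbx2, Slc10a4 and Slc18a3. With centring on the median there were 5, with Slc18a3 in place of Ngfr. Groups without overlap were counted over all genes only in the main processing, so nothing is read from those counts in the alternatives. Apart from the 6 spots, the cause of the shifts between settings was not tested. Chat, Slc18a3 and Slc5a7 lay among the dimmest 20% of the genes tested.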
